A study of Mus musculus with 24 samples.

Results

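The clustered protocadherins are a family of cadherin-like cell surface proteins encoded in 3 neighbouring gene clusters, alpha, beta and gamma. They were taken here as every feature whose symbol carried the stem Pcdha, Pcdhb, Pcdhga, Pcdhgb or Pcdhgc followed by an isoform number, or Pcdhac1 and Pcdhac2. The rule found 61 features of 23845 in the RNA table and 61 of 20436 in the ribosome footprint table. The alpha cluster held 17 of them, the beta cluster 22 and the gamma cluster 22.

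RNA and ribosome-protected fragments (RPFs, the stretches of mRNA shielded by a ribosome, also called footprints) were sequenced from the same lysates of acute mouse hippocampal slices. Wild-type (WT) mice were compared with littermates carrying 1 germline copy of Tsc2, an inhibitor of mTOR signalling, and slices received vehicle or 100 µM of DHPG, which activates the group I metabotropic glutamate receptors (mGluR1 and mGluR5), for 5 min. This gave 4 groups (WT vehicle, WT DHPG, Tsc2+/- vehicle and Tsc2+/- DHPG), each with 3 RNA and 3 footprint libraries. All mice were males of 28 to 42 days on a C57BL/6J background. One Tsc2 allele had been deleted in the germline with a CMV-Cre driver, and the controls were WT littermates. Area CA3 had been cut away, each library pooled the slices of several mice, and the vehicle was artificial cerebrospinal fluid (ACSF) alone. Cycloheximide, which arrests elongating ribosomes, was present at lysis in all groups.

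Clustered protocadherins are adhesion proteins, most of which bind the same isoform on a neighbouring membrane. Single neurons switch on their own small set of isoforms through promoter choice under the control of CTCF and cohesin, and the resulting surface code lets sister branches of one neuron recognise and avoid each other. The last isoforms of the alpha and gamma clusters, the C-types (Pcdhac1, Pcdhac2, Pcdhgc3, Pcdhgc4 and Pcdhgc5), are used more uniformly, and Pcdhgc4 is needed for the survival of many interneurons.

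All 61 features lie on the plus strand of chromosome 18 (GRCm38.p6, the mm10 build). The alpha genes start from position 36930285, the beta genes fill chr18:37264998-37521419 and the gamma genes chr18:37661775-37841873. An alpha or gamma transcript has 4 exons, a long first exon of its own that codes for the extracellular and transmembrane parts, and 3 constant exons shared by the whole cluster. A beta gene is a single exon with no constant part. The median share of a transcript that lay in no other member was therefore 45.5% in alpha, 54.95% in gamma and 100% in beta, and within the coding sequence it was 83.8%, 86.6% and 100%. Of 17 alpha rows, 3 ended in -g (Pcdha4-g, Pcdha6-g and Pcdha7-g, RefSeq Gm37013, Gm38666 and Gm38667) and join an alpha first exon to the constant exons of gamma. Pcdhgb8 is annotated as a transcribed pseudogene.

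The libraries held 14801679 to 24067838 RNA counts and 5296006 to 13613673 footprint counts. The 61 features took 0.157 to 0.174% of the RNA counts and 0.203 to 0.218% of the footprints. In the footprint libraries of replicates 2 and 3, 97.9 to 98.5% of all counts above 0 were even numbers, against 48.2 to 49.0% in replicate 1 and 48.5 to 49.7% in the RNA libraries. Tsc2 itself, the check of the genotype, was at 186 to 214 CPM (counts scaled to a common library size) of RNA in WT and 128 to 137 in Tsc2+/-, with 123 to 146 and 76.5 to 84.5 CPM of footprints. The 6 pyramidal neuron markers summed to between 8230 and 10300 CPM of RNA, and 3 markers of the removed area CA3 to between 33.6 and 50.7.

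On the RPKM scale, which divides CPM by length and so lets genes be compared, the gamma cluster stood above the other clusters. The median RNA level over the 12 libraries was 6.16 RPKM in gamma, 1.5 in beta and 1.19 in alpha, and the median footprint level was 16.3, 6.2 and 3.42 RPKM. Gamma genes held 76.5 to 79.0% of all RNA counts of the family and 72.1 to 74.7% of its footprints. Pcdhgc5, a gamma C-type known from GABA-ergic synapses, had the highest levels of the family with 76.3 RPKM of RNA (68.3 to 80.8) and 177 RPKM of footprints (167 to 197). Pcdhgc3, a C-type known to promote dendrite branching, followed with 70.9 RPKM of RNA (62.5 to 75.5) and 62.0 of footprints (52.1 to 74.7). The RNA ranges of these neighbours overlapped and their footprint ranges did not.

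**Figure D1:**
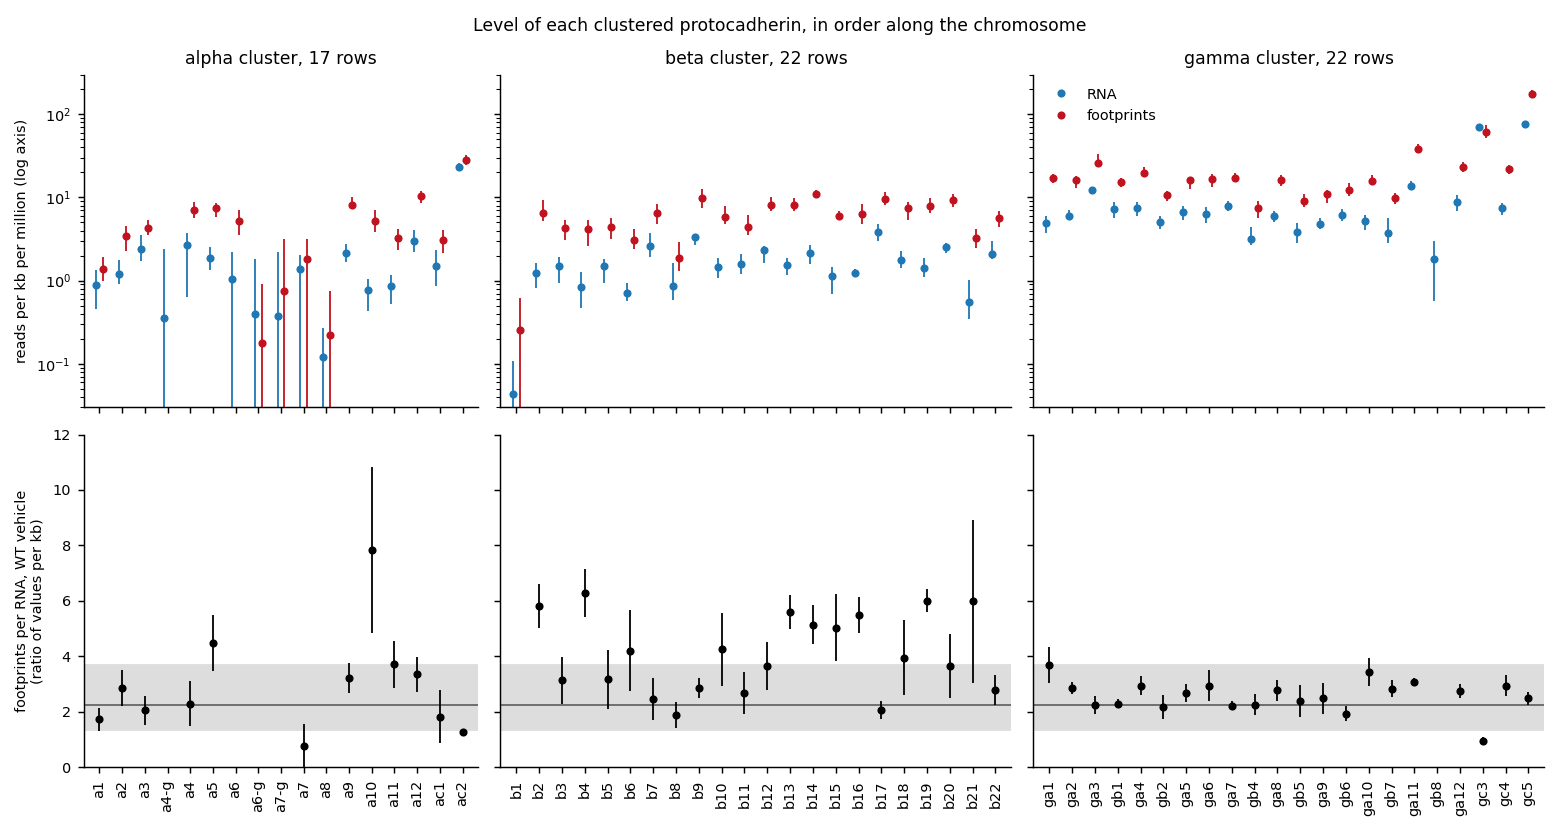
Levels of each clustered protocadherin in chromosomal order, with RNA and footprint RPKM on a log axis above (points are means, bars the range over 12 libraries) and footprints per RNA in WT vehicle below (mean ± SD of 3 lysates, grey band the quartiles 1.34 to 3.69 of all genes, line their median of 2.24). Pcdhgc5 and Pcdhgc3 stand highest in both readouts, and Pcdhgc3 lies below the grey band at 0.947.

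In the alpha cluster the C-type Pcdhac2 (chr18:37143678-37187663), an isoform known from serotonergic axon tiling, led with 23.1 RPKM of RNA and 28.4 of footprints. It alone took 51.3 to 56.0% of the alpha RNA counts and 28.1 to 35.4% of the alpha footprints. The other alpha C-type, Pcdhac1, was far lower, at 1.48 RPKM of RNA and 3.06 of footprints, below Pcdha12, the next alpha isoform, at 3.03 and 10.3 RPKM. No beta gene reached the level of Pcdhac2, with beta RNA from 0.044 to 3.86 RPKM and footprints from 0.255 to 11.1. Pcdhb17 was highest in RNA with 3.86 RPKM (3.0 to 4.79), next to Pcdhb9 with 3.32 (2.67 to 3.64), and these ranges overlapped. In footprints Pcdhb14 led the beta genes with 11.1 RPKM, next to Pcdhb9 with 9.97 (7.39 to 12.6). The remaining gamma C-type, Pcdhgc4, had 7.48 RPKM of RNA (6.1 to 8.47), below the gamma A-types Pcdhga11 at 13.7 (12.4 to 15.7) and Pcdhga3 at 12.4 (11.3 to 13.4). In a bulk library, fewer cells with an isoform and less RNA of it per cell cannot be told apart.

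Ribosome occupancy per RNA differed between the clusters. In WT vehicle slices, the ratio of footprint RPKM to RNA RPKM had a median of 2.24 over 12522 genes, with quartiles of 1.34 and 3.69. The median was 3.96 for 21 beta genes, 2.58 for 12 alpha and 2.69 for 21 gamma genes with a ratio. Of these, 19 beta, 7 alpha and 17 gamma genes lay above the median of all genes, and 11, 3 and 1 above its upper quartile. The 3 clusters differ in how the counts are made, since footprints were counted over coding sequence and RNA over whole transcripts whose constant exons are shared in alpha and gamma, and the part of this in the ratios was not tested.

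The most abundant isoforms were not those with the most footprints per RNA. Pcdhgc3 gave 1.09, 0.912 and 0.834 footprints per RNA in the 3 WT vehicle lysates (0.947 ± 0.133, SD, n = 3), at percentile 14.0 of all genes, and stayed between 0.724 and 1.09 in all 12 lysates. Pcdhac2 gave 1.28 ± 0.031 (SD, n = 3), at percentile 23.0, and Pcdhgc5 2.49 ± 0.238, at percentile 55.2. Pcdhgc4 was at 2.95 ± 0.37. At the other end, Pcdhb4 gave 6.28 ± 0.861 and Pcdha10 7.84 ± 3.0, the latter at percentile 95.4 and with a wide spread. Over all 12 lysates Pcdhb4 ran from 2.77 to 8.5 and Pcdha10 from 4.74 to 13.9. Their mean RNA levels were low, at 3.09 and 4.0 CPM. As a share of gamma counts, Pcdhgc3 took 24.9 to 26.4% of the RNA and 9.25 to 12.9% of the footprints, whereas Pcdhgc5 took 26.4 to 29.1% and 30.1 to 33.8%. The 3 members Pcdhb4, Pcdhb14 and Pcdha10 were picked for mention after their values were seen.

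Whether loss of 1 Tsc2 copy altered the family was asked first at the level of summed counts. Summed gamma RNA was 1225, 1267 and 1177 CPM in WT vehicle, and 1347, 1321 and 1341 CPM in Tsc2+/- vehicle. The groups did not overlap, and the ratio of their means, 1336 ± 13.4 against 1223 ± 44.9 CPM (SD, n = 3), was 1.09. In DHPG the gamma sums were 1329, 1299 and 1308 CPM in WT and 1287, 1366 and 1327 CPM in Tsc2+/-, which overlapped. WT vehicle was thus the group with the lowest gamma RNA, and both comparisons against it, by genotype and by DHPG, share its 3 libraries. Summed pyramidal neuron markers were also lowest there, at 8230 to 9210 CPM, overlapping the 9160 to 9470 of WT DHPG and the 9180 to 10300 of Tsc2+/- vehicle, with 9340 to 9800 for Tsc2+/- given DHPG. This was not particular to pyramidal neurons. The lowest RNA sums of oligodendrocyte (4400 CPM), astrocyte (1730) and microglia (164) markers were in WT vehicle too, with overlapping ranges. Dentate granule cell and endothelial markers instead had their highest RNA sums there, at 163 and 56.3 CPM. The part of these marker differences in the gamma sums was not tested. Gamma footprints showed no gap by genotype in vehicle, with 1584, 1510 and 1547 CPM in WT vehicle and 1566, 1618 and 1536 CPM in Tsc2+/- vehicle.

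In vehicle the alpha and beta sums overlapped between the genotypes. Summed alpha RNA was 238.2 ± 4.56 CPM in WT vehicle and 242.7 ± 9.08 in Tsc2+/- vehicle (SD, n = 3), and summed beta RNA 125.1 ± 8.0 and 129.3 ± 9.91. Among the DHPG slices, 2 further sums did not overlap between the genotypes. Alpha footprints were 242.6 ± 1.35 CPM in WT and 270.5 ± 14.5 in Tsc2+/-, a ratio of 1.11, and beta RNA was 122.7, 115.7 and 118.0 CPM in WT and 126.0, 129.8 and 134.3 CPM in Tsc2+/-, a ratio of 1.09. These sums were compared by their spread alone, with no test.

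**Figure D2:**
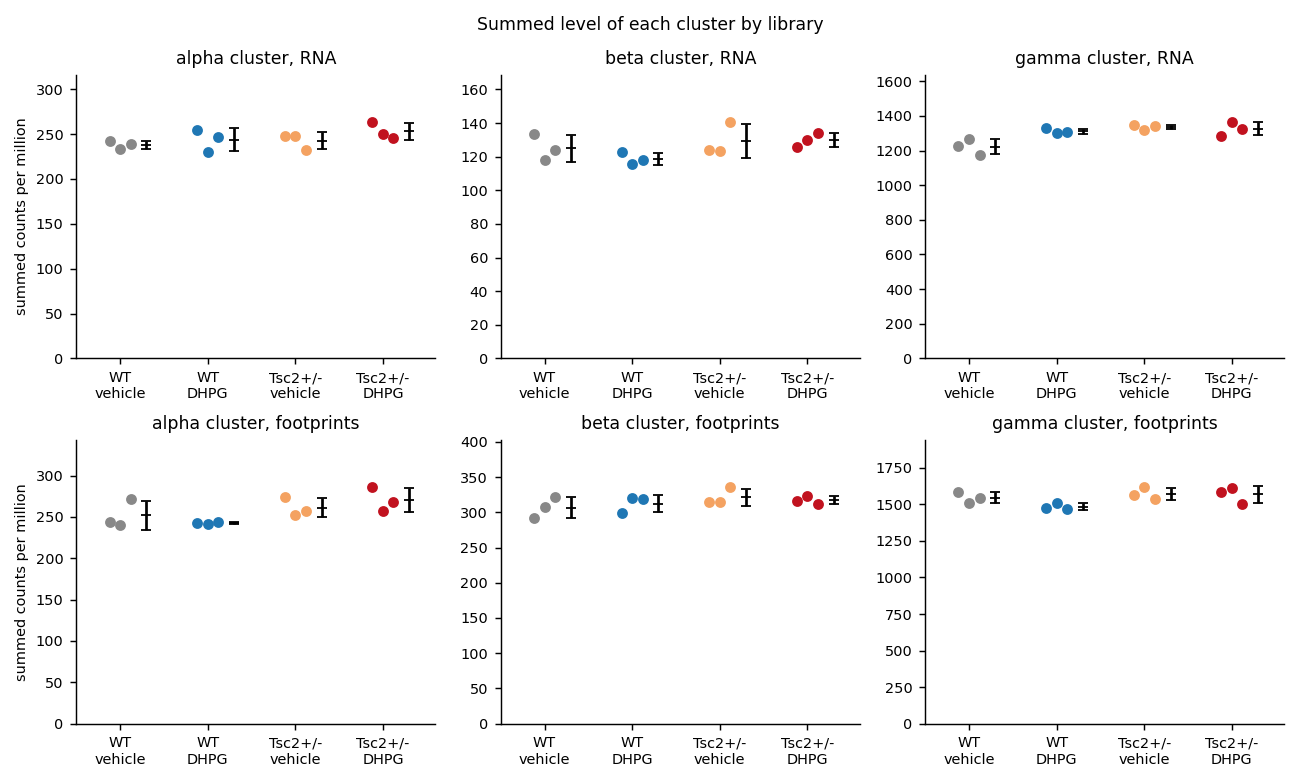
Summed CPM of the alpha, beta and gamma clusters in each library, for RNA and footprints in the 4 groups (points are libraries, bars the mean and SD of 3). Gamma RNA is lowest in WT vehicle, at 1177 to 1267 CPM. Gamma footprints overlap in each of the 4 comparisons by genotype or by DHPG. Their WT DHPG libraries (1466 to 1511 CPM) lie below Tsc2+/- vehicle (1536 to 1618), a pair that differs in both genotype and treatment.

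At the level of single genes, Pcdhgb1 RNA was higher in Tsc2+/- vehicle slices than in WT. Pcdhgb1 (chr18:37680272-37841870), a gamma B-type isoform with a first exon of its own, had 26.6, 29.9 and 33.3 CPM in WT vehicle and 39.8, 41.1 and 39.3 CPM in Tsc2+/- vehicle. No library of one genotype reached the other. The log2 fold change was 0.42 (SE 0.0865), with an adjusted p of 0.0290 by edgeR's quasi-likelihood test with Benjamini-Hochberg adjustment over all 14516 genes. It was the only member called of 60 that passed the low-count filter, at a background of 0.0896% of all genes called in this comparison. The call was lost with no replicate block (adjusted p = 0.119) and without replicate 1 or replicate 2 in every group (0.546 and 0.437). Without WT vehicle replicate 1 or 2 the adjusted p was 0.491 and 0.117, and without Tsc2+/- vehicle replicate 1 or 2 it was 0.245 and 0.238, with log2 fold changes of 0.36 to 0.41.

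In the DHPG slices Pcdhgb1 RNA was at 33.0, 30.25 and 29.8 CPM in WT and 33.1, 39.0 and 38.2 CPM in Tsc2+/-. The lowest Tsc2+/- library was close to the highest WT library, without overlap, and the log2 fold change of 0.25 (SE 0.0871) did not pass edgeR's quasi-likelihood test (adjusted p = 0.841). The interaction of genotype and DHPG for Pcdhgb1 RNA was -0.17 (SE 0.123, adjusted p = 0.999), so a difference between the 2 genotype effects was not shown. Averaged over vehicle and DHPG, Pcdhgb1 rose by 0.33 (SE 0.0614, adjusted p = 0.00420), a call that was lost without replicate 2 (adjusted p = 0.501). Its footprints did not follow, with 35.9, 36.8 and 46.6 CPM in WT vehicle against 44.1, 39.3 and 41.4 CPM in Tsc2+/- vehicle. These overlapped, at a log2 difference of 0.08 (SE 0.104, adjusted p = 0.920). The change in Pcdhgb1 footprints per RNA by genotype in vehicle was -0.34 (SE 0.137), which did not pass the test (adjusted p = 0.863).

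Pcdhga12 (chr18:37765580-37841873), the last gamma A-type isoform, was the other called member, in RNA, when the genotype effect was averaged over both treatments. It had 39.9, 39.5 and 43.4 CPM in WT vehicle and 54.1, 46.4 and 50.9 CPM in Tsc2+/- vehicle, which did not overlap. With DHPG it had 36.4, 35.35 and 47.7 CPM in WT and 46.7, 43.3 and 54.3 CPM in Tsc2+/-, which did. The genotype effect averaged over treatments was 0.29 (SE 0.0565), with an adjusted p of 0.0103 by edgeR's quasi-likelihood test. Pcdhga12 and Pcdhgb1 were the 2 members called of 60 there, at a background of 0.227%. In vehicle alone Pcdhga12 was at 0.30 (SE 0.0796, adjusted p = 0.346), and in DHPG alone at 0.27 (SE 0.0802, adjusted p = 0.636). Its footprints differed by 0.18 averaged over treatments (SE 0.0590), which did not pass the test (adjusted p = 0.543). The call for Pcdhga12 was lost with no replicate block (adjusted p = 0.260), without replicate 1 (0.301) or replicate 2 (0.259), and without WT DHPG replicate 1 (0.102).

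**Figure D3:**
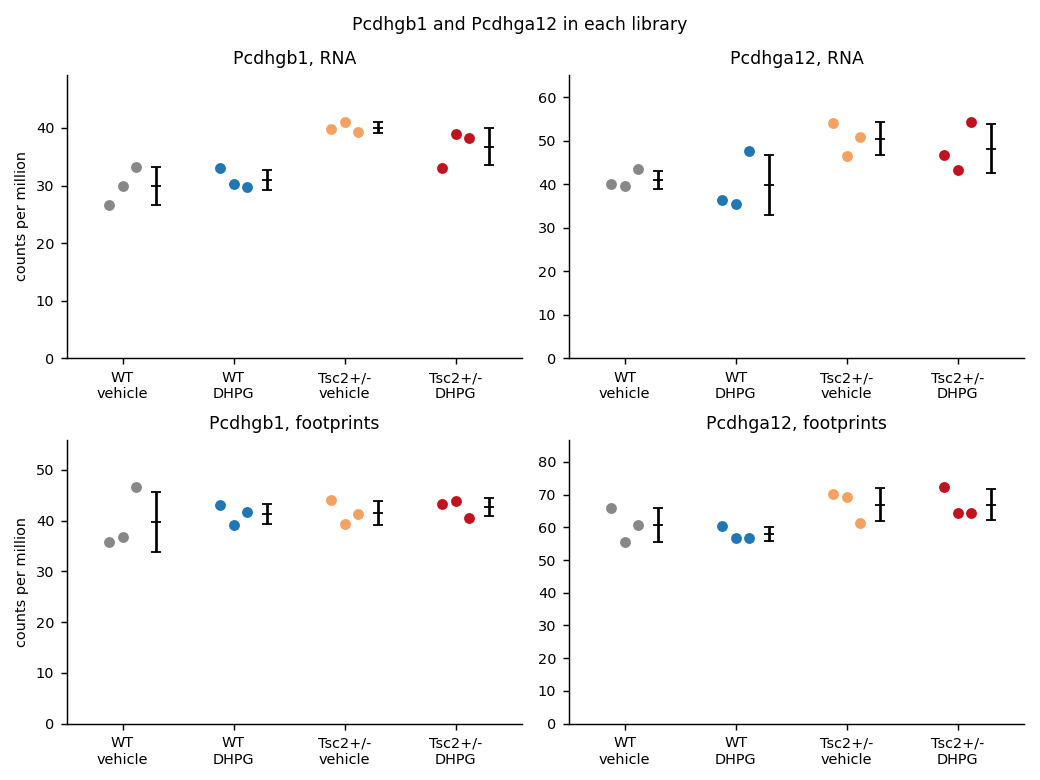
CPM of Pcdhgb1 and Pcdhga12 in each library for RNA and footprints, with the mean and SD of 3 libraries per group. The Tsc2+/- vehicle RNA libraries (39.3 to 41.1 CPM for Pcdhgb1, 46.4 to 54.1 for Pcdhga12) sit above all WT vehicle libraries, while the Pcdhgb1 footprints of these groups overlap.

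The genotype comparison in vehicle was then read over each cluster, where 12 members had an unadjusted p under 0.05 and 4.9% of all genes did. The gamma RNA median was 0.15 on the log2 scale, with 18 of 22 genes above 0, beside a median of -0.002 and 49.2% above 0 over all genes tested. In alpha 4 of 17 features lay above 0 (median -0.10), and in beta 12 of 21 (median 0.05). Libraries of the genotypes did not overlap for 9 members that were higher in Tsc2+/-, where all genes gave 4.01%, and for 3 that were lower, where all genes gave 4.19%. The higher ones were the gamma isoforms Pcdhgb1, Pcdhga12, Pcdhga4, Pcdhga9, Pcdhgb6, Pcdhgc3 and Pcdhgc5, with Pcdhb4 and Pcdha6, and Pcdhga9 and Pcdhb4 among them are named after their values were seen. Pcdha6 was at 0 in WT vehicle replicate 3, where its -g row held 170 counts, and summed with its -g row it held 104, 222 and 170 counts in WT and 143, 213 and 329 in Tsc2+/-. The lower ones were Pcdha9, Pcdhb17 and Pcdhb2, the last also named after its values were seen. Pcdhga4 had 27.96, 33.5 and 29.6 CPM in WT against 36.6, 36.5 and 41.2 CPM in Tsc2+/- (0.32, SE 0.0984, adjusted p = 0.772 by edgeR's test). Pcdhgc5 had 323, 356 and 322 CPM against 376, 373 and 356 CPM (0.14, SE 0.0483, adjusted p = 0.870). Gamma genes share reads over their constant exons and this median is no average over independent genes.

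In DHPG slices the genotype comparison gave another picture by cluster. The gamma RNA median was 0.01, the alpha median 0.02 and the beta median 0.15, with 15 of 21 beta genes above 0. With libraries or replicates left out, the beta median ran from 0.058 (without replicate 3) to 0.238 (without Tsc2+/- DHPG replicate 1) and the alpha median from -0.056 (without Tsc2+/- DHPG replicate 2) to 0.112 (without replicate 3). edgeR called 0 of 60 members (background 0.0482%), 8 had an unadjusted p under 0.05 (4.64% of all genes did), and DESeq2 also called 0. Libraries did not overlap for 8 members that were higher in Tsc2+/-, where all genes gave 4.9%, and for 0 that were lower, where all genes gave 4.54%. Pcdha7-g, which shares its first exon with Pcdha7, is 1 of the 8.

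Footprints gave no called member by genotype. In vehicle, edgeR called 0 of 58 members (background 0.0233%), with 4 at an unadjusted p under 0.05 where 6.55% of all genes had one, and DESeq2 called 0. Pcdha12 had the smallest p. Its footprints were at 26.8, 25.5 and 24.2 CPM in WT vehicle and 32.6, 31.6 and 33.0 CPM in Tsc2+/- vehicle, with no overlap, and the log2 fold change of 0.34 (SE 0.109) did not pass the test (adjusted p = 0.550). In DHPG the same gene had 27.2, 25.8 and 24.5 CPM in WT and 31.0, 31.2 and 31.4 CPM in Tsc2+/-, again apart, and the averaged genotype effect of 0.31 (SE 0.0760) had an adjusted p of 0.277. Pcdhgb6 had 31.1, 28.6 and 34.6 CPM of footprints in WT vehicle and 34.6, 40.4 and 39.6 in Tsc2+/- vehicle (0.28, SE 0.113, adjusted p = 0.666). Pcdha6, one of the isoforms whose first exon is also listed in a -g row, was at 0.39 (SE 0.161, adjusted p = 0.667). In replicate 1 its -g row held 19 footprint counts in WT vehicle and 14 in Tsc2+/- vehicle. The summed pair held 94, 115 and 71 counts in WT vehicle and 140, 139 and 133 in Tsc2+/- vehicle, not scaled for library size. Scaled, Pcdha6 alone was at 9.90, 14.4 and 13.5 CPM in WT vehicle and 12.1, 18.4 and 19.6 CPM in Tsc2+/- vehicle, which overlapped. Libraries did not overlap for 6 members that were higher in Tsc2+/- (4.21% of all genes) and 1 that was lower (4.08%). Pcdha7 is 1 of the 6, and was at 0 in WT vehicle replicate 2, where its -g row held 68 counts. Its summed pair held 53, 68 and 17 counts in WT vehicle and 72, 46 and 39 in Tsc2+/- vehicle, which overlapped. Footprint medians by genotype in vehicle were 0.06 in alpha, 0.09 in beta and 0.03 in gamma.

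In DHPG slices, edgeR called 0 of 58 members in footprints by genotype (background 0.0155%), 8 had an unadjusted p under 0.05 (4.13% of all genes did) and DESeq2 called 0. The medians were 0.14 in alpha, with 12 of 15 above 0, 0.03 in beta and 0.11 in gamma, with 17 of 22 above 0, and libraries were apart for 7 members that were higher (4.95% of all genes) and 1 that was lower (5.1%). For footprints per RNA, 0 of 58 members were called by genotype in vehicle and in DHPG by edgeR (background 0.0% in each), with 3 and 2 at an unadjusted p under 0.05 where all genes gave 5.76% and 3.03%, and DESeq2 called 0 in each. Pcdhac1, the low alpha C-type, was at 0.69 (SE 0.324) in vehicle and Pcdha9 at 0.38 (SE 0.182), both with an adjusted p of 0.863.

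DHPG is known to induce a form of synaptic depression that needs new protein, and the second question was what 5 min of it did to the family in WT slices. No member passed the test. edgeR called 0 of 60 in RNA (background 0.0%), with 9 at an unadjusted p under 0.05 where all genes gave 6.45%, and 0 of 58 in footprints (background 0.0311%), with 2 where all genes gave 6.71%. DESeq2 called 0 in each. In RNA, 3 members were higher without overlap (5.43% of all genes were) and 2 lower (4.92%). In footprints, 2 were higher (5.0%) and 4 lower (3.96%). Pcdha7 is 1 of these 2, and was at 0 in WT vehicle replicate 2, where its -g row held 68 footprint counts. Its summed pair held 53, 68 and 17 counts in WT vehicle and 119, 72 and 54 in WT DHPG, which overlapped.

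The members nearest to a call went both ways. Pcdha9, an alpha isoform, had 14.9, 12.8 and 12.3 CPM of RNA in WT vehicle and 10.1, 10.4 and 8.95 CPM in WT DHPG, apart from each other, with a log2 difference of -0.43 (SE 0.131, adjusted p = 0.712 by edgeR's test). Its footprints were level at 21.8, 22.2 and 24.9 CPM and 22.5, 22.96 and 24.96 CPM. Pcdhga1, the first gamma isoform, went from 22.3, 20.2 and 18.7 CPM of RNA to 27.9, 25.8 and 26.4 CPM (0.39, SE 0.119, adjusted p = 0.712). Pcdhgc5 RNA was at 323, 356 and 322 CPM without DHPG and 373, 379 and 347 CPM with it, which overlapped (0.14, SE 0.0484, adjusted p = 0.712).

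In footprints, Pcdhga11 had 114.7, 107.5 and 106.3 CPM in WT vehicle and 99.5, 97.2 and 94.5 CPM in WT DHPG (-0.17, SE 0.0721, adjusted p = 0.674). These libraries did not overlap. Pcdha5 footprints were at 23.2, 20.95 and 23.4 CPM and then 17.98, 17.7 and 19.0 CPM (-0.31, SE 0.134, adjusted p = 0.699). Pcdhga3 differed by -0.19 (adjusted p = 0.731), and its WT vehicle libraries ranged from 65.9 to 91.9 CPM, where the highest stood apart from the others at 69.0 and below.

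For footprints per RNA in WT slices with DHPG, the gamma cluster leaned one way. The ratio of summed gamma footprints to summed gamma RNA was 1.29, 1.19 and 1.31 for vehicle and 1.11, 1.16 and 1.12 for DHPG in the WT slices, without overlap. In the Tsc2+/- slices it was 1.16, 1.22 and 1.15 for vehicle and 1.23, 1.18 and 1.13 for DHPG, which overlapped. The mean ratio was highest in WT vehicle, the group lowest in gamma RNA, at 1.27 against 1.13 in WT DHPG and 1.18 in both Tsc2+/- groups. The median gamma log2 change in WT was -0.16, with 2 of 22 genes above 0. In Tsc2+/- slices the gamma median was -0.01, with 11 of 22. Over all genes tested the median was -4e-04 in each comparison. Gamma genes share reads over their constant exons, so these are not counts of independent genes. The WT gamma medians were 0.07 in RNA (17 of 22 above 0) and -0.04 in footprints (5 of 22). After adjusting every library for GC content and gene length, they went to -0.09 per RNA (6 of 22), 0.03 in RNA (13 of 22) and -0.02 in footprints (8 of 22).

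No member passed the test of footprints per RNA. edgeR called 0 of 58 members with DHPG in WT (background 0.0548%), 5 had an unadjusted p under 0.05 (9.06% of all genes did), and DESeq2 called 0. The smallest p was that of Pcdhb17, the beta gene with the most RNA. Its RNA was at 15.7, 13.1 and 12.7 CPM in WT vehicle and 10.3, 9.81 and 12.8 CPM in WT DHPG, its footprints at 19.1, 21.6 and 20.2 CPM and 20.3, 23.2 and 26.9 CPM, and the change per RNA was 0.51 (SE 0.182, adjusted p = 0.350). Pcdha9 was at 0.46 (SE 0.183, adjusted p = 0.404) and Pcdhgc5 at -0.19 (SE 0.0744, adjusted p = 0.422). The beta median was 0.07 and the alpha median -0.11.

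**Figure D4:**
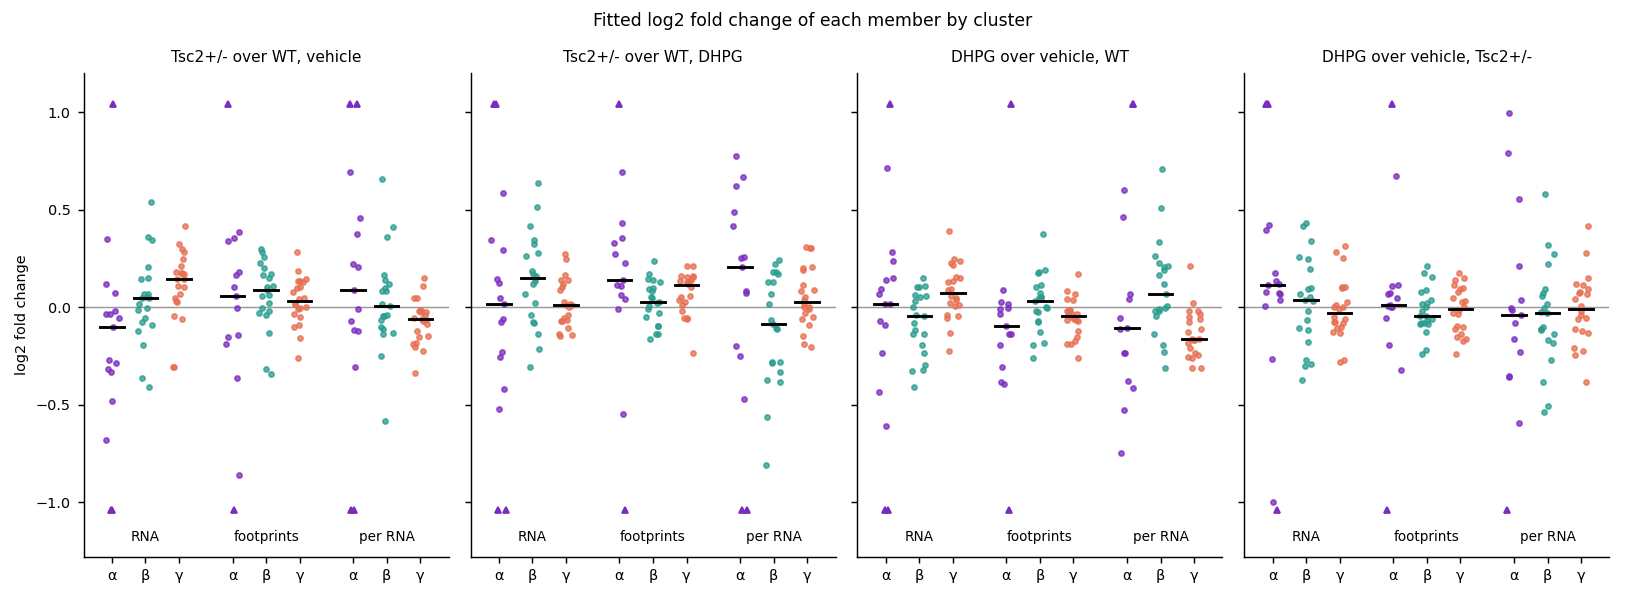
Log2 fold change of each member by cluster in RNA, footprints and footprints per RNA for genotype in vehicle, genotype in DHPG, DHPG in WT and DHPG in Tsc2+/- (points are members, black lines cluster medians, triangles 31 alpha values beyond the axis at 1). Gamma medians stand at 0.15 for RNA by genotype in vehicle and at -0.16 for footprints per RNA with DHPG in WT.

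In Tsc2+/- slices, DHPG gave no called member either. edgeR called 0 of 60 in RNA and 0 of 58 in footprints and in footprints per RNA (background 0.0% in each). Unadjusted p values under 0.05 fell on 10, 3 and 4 members, where all genes gave 4.32%, 4.03% and 3.65%, and DESeq2 called 0 in each. Alpha RNA had a median of 0.11 (14 of 17 above 0), beta 0.04 and gamma -0.03, and 3 of the 17 are -g rows. With libraries or replicates left out, the alpha median ran from 0.041 (without Tsc2+/- vehicle replicate 3) to 0.239 (without replicate 1) and the beta median from -0.042 (without Tsc2+/- vehicle replicate 1) to 0.094 (without replicate 3). In RNA, libraries were apart for 7 members that were higher with DHPG (4.22% of all genes) and 4 that were lower (4.46%), and in footprints for 1 (4.95%) and 5 (4.47%). The 7 include Pcdha6-g and Pcdha7-g. For the interaction of genotype and DHPG, edgeR called 0 members in each readout (background 0.0% in each), 8, 3 and 5 members had an unadjusted p under 0.05 where all genes gave 3.47%, 3.81% and 4.06%, and DESeq2 called 0. The gamma interaction median was -0.12 in RNA (4 of 22 above 0) and 0.12 in footprints per RNA (18 of 22). Adjusted for GC content and gene length these were -0.09 (7 of 22) and 0.06 (15 of 22).

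Averaged over the other factor, no member was called beyond Pcdhgb1 and Pcdhga12 in RNA. By genotype, 10 of 60 members had an unadjusted p under 0.05 in RNA (6.12% of all genes), 9 of 58 in footprints (6.63%) and 3 of 58 in footprints per RNA (4.5%), and edgeR and DESeq2 called 0 in footprints and in footprints per RNA (background 0.0621% and 0.0%). With DHPG, edgeR and DESeq2 called 0 in each readout (background 0.0207% in RNA, 0.0311% in footprints and 0.0469% in footprints per RNA), and 4, 3 and 4 members had an unadjusted p under 0.05, where all genes gave 7.49%, 6.82% and 8.5%.

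Pcdhgc3 RNA was at 315.7 ± 21.1 CPM for vehicle and 336.9 ± 10.3 for DHPG in WT, and at 339.2 ± 4.41 and 337.4 ± 14.6 in Tsc2+/- (SD, n = 3). Its footprints were at 175.5 ± 31.1, 167.1 ± 4.55, 177.1 ± 3.62 and 161.1 ± 17.3 CPM in the same order. Pcdhac2 RNA was at 125.2 ± 2.49, 133.9 ± 5.03, 131.7 ± 4.8 and 138.4 ± 7.0 CPM, where of the 4 comparisons only DHPG in WT had groups apart. Its footprints were at 82.7 ± 3.5, 82.2 ± 3.73, 82.2 ± 9.46 and 88.9 ± 5.3 CPM. Pcdhac1 RNA was at 9.18 ± 2.88, 7.59 ± 1.79, 7.30 ± 2.72 and 7.26 ± 1.63 CPM and its footprints at 8.34 ± 2.88, 6.99 ± 1.01, 10.23 ± 1.49 and 9.09 ± 1.65 CPM, with overlap in each of the 4 comparisons. Pcdhgc4 stayed between 30.6 and 42.6 CPM of RNA and between 52.9 and 67.2 CPM of footprints in all libraries.

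Isoforms that share exons had to share reads. Of all stretches of RNA read length in a transcript, 38.8 to 50.5% were found in no other member for 11 alpha genes, 47.7 to 73.9% for gamma genes and 95.9 to 100% for beta genes. Of the shorter stretches of footprint length in the coding sequence the share was 57.7 to 86.3%, 66.3 to 88.4% and 66.9 to 100%. The called Pcdhgb1 was at the low end of gamma, with 48.3% of its RNA stretches and 66.3% of its footprint stretches. For Pcdha4, Pcdha6, Pcdha7 and their -g rows the share was 1.3 to 20.1%, and over the footprint windows 0.8 to 2.0%. In these 3 pairs the division of counts between the rows varied from library to library. Pcdha7 was listed at 0 in the RNA library of Tsc2+/- DHPG replicate 1, where its -g row held 230 counts, and Pcdha6 at 0 in WT vehicle replicate 3, where its -g row held 170. In WT DHPG replicate 1, Pcdha4 held 51 counts and its -g row 168. No library had both rows of a pair at 0. When the rows of a pair were summed, the coefficient of variation over the 12 RNA libraries fell from 39.0 to 13.6% for Pcdha7, from 31.0 to 11.8% for Pcdha4 and from 54.9 to 27.97% for Pcdha6. Fold changes of the -g rows are not given. The sums, an alternative chosen after the data were seen, moved the alpha RNA median by genotype in vehicle from -0.10 to -0.05 (3 of 14 above 0).

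**Figure D5:**
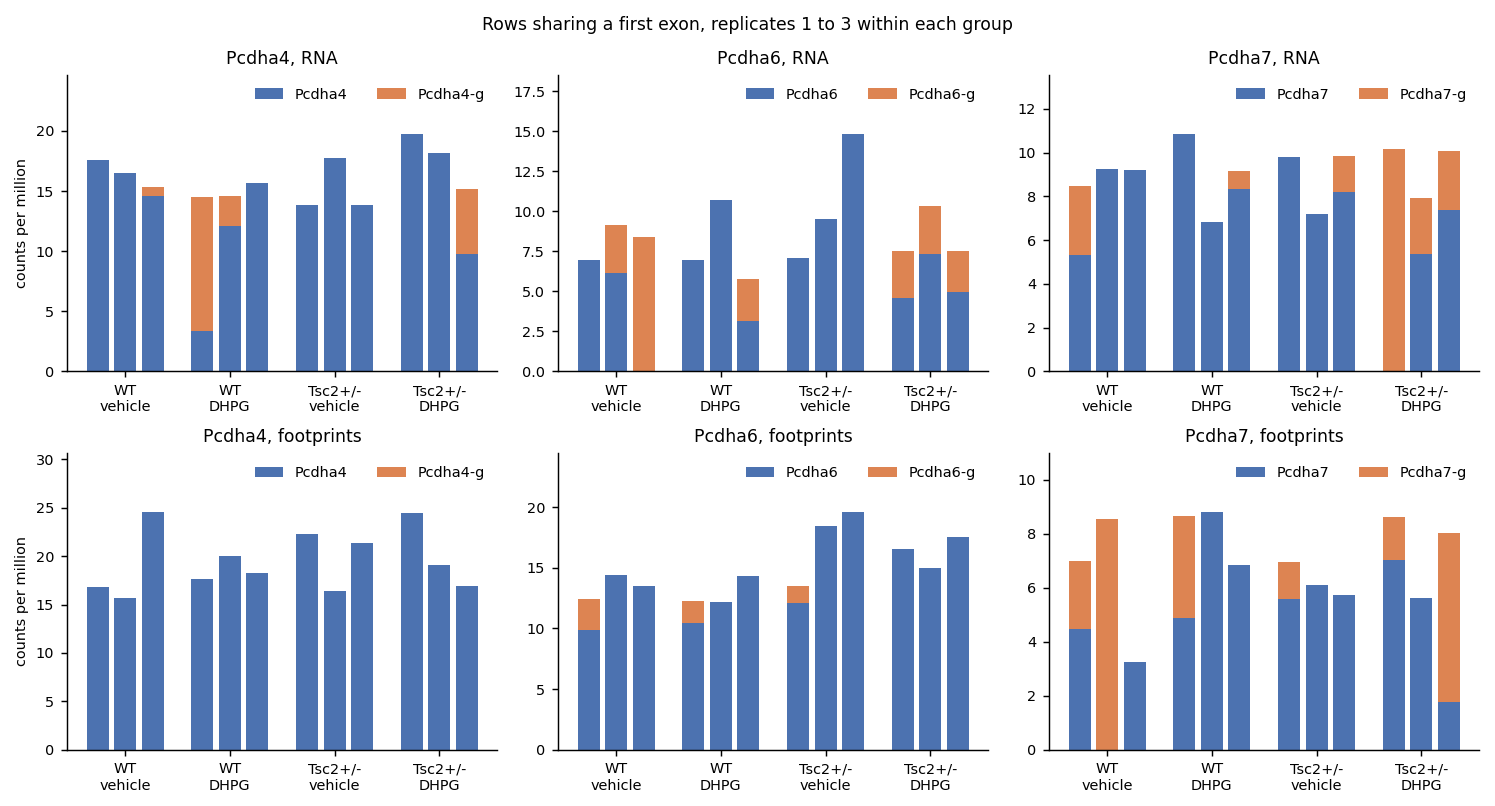
CPM of Pcdha4, Pcdha6 and Pcdha7 stacked with their -g rows in each library, for RNA and footprints. The split between the RNA rows differs from library to library, while the summed RNA bars are more even, from 6.81 to 10.9 CPM for the Pcdha7 pair, and Pcdha4-g is at 0 in all footprint libraries.

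The median coefficient of variation over 12 RNA libraries was 26.9% for alpha rows against 14.1% for other genes of like CPM, 12.1% for gamma against 7.93%, and 17.2% for beta against 16.4%. In footprints, which come from the coding sequence alone, the values were 18.3% against 15.02% for alpha, 9.13% against 9.26% for gamma and 14.8% against 14.2% for beta. Of the 61 features, Pcdhb1 failed the low-count filter in both readouts, and Pcdha4-g and Pcdha8 failed it in footprints, where Pcdha4-g was at 0 in all 12 libraries. The counts above refer to the members that passed.

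Genes that act with the family, resemble it or flank it gave no call. From lists of its promoter and chromatin regulators (19 of 21 tested, among them Ctcf and the cohesin subunit Smc3), its partners, cleavage enzymes and signalling proteins (26 of 26 tested), the non-clustered protocadherins and cadherins (26 of 28 in RNA, 25 in footprints) and the genes flanking the clusters (14 of 16, 13 in footprints), edgeR and DESeq2 called 0 in each of the 7 comparisons of each readout, where edgeR called 0.0 to 0.227% of all genes. The most members at an unadjusted p under 0.05 in a comparison were 4 of 19 regulators (footprints, genotype averaged, 6.63% of all genes), 7 of 26 partners (footprints per RNA with DHPG in WT, 9.06%, and footprints with DHPG averaged, 6.82%), 6 of 25 other cadherins (footprints, genotype in DHPG, 4.13%, at a median of 0.121) and 1 flanking gene. In RNA by genotype in vehicle, where 0, 2, 1 and 1 had such a p, their medians were 0.002, 0.021, 0.017 and -0.002. For example, and picked after their values were seen, Smc3 was at -0.13 (SE 0.0876, adjusted p = 0.991), and Axin1, a binding partner of Pcdhgc3 in Wnt signalling, was at -0.54 in footprints (SE 0.161, adjusted p = 0.517). Ndufa2, a gene next to the clusters that codes for a mitochondrial protein, was at -0.35 in RNA (SE 0.123, adjusted p = 0.920).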

How the data were processed

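The authors removed adapters and rRNA and tRNA reads, aligned the rest to mm10, kept uniquely mapped and deduplicated reads, and deposited RSEM expected counts rounded to whole numbers, RNA over whole transcripts and footprints over coding sequence less its ends. RSEM divides reads on shared exons between isoforms by estimate. By the study's account, RNA libraries of slices without CA3 were made with poly(A) beads, and footprint libraries were depleted of rRNA. P-values measure only the spread between these libraries of pooled slices, which may in part be technical.

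From the deposited counts, edgeR 4.0.16 (R 4.3.3) was run with filterByExpr at a minimum count of 10, TMM scaling and a quasi-likelihood test with group and replicate number as terms over the 12 libraries of a readout (14516 RNA and 12877 footprint genes). Footprints per RNA were the interaction of readout and group over 24 libraries and 12785 genes. P-values were adjusted over all genes tested by the Benjamini-Hochberg method, called under 0.1. The study had corrected its counts for batch. Its batches were taken here to be the replicate numbers, hence the replicate term. Zero calls are given with the count at an unadjusted p under 0.05 and by DESeq2 1.42.0. CPM values are TMM-scaled. RPKM used RefSeq transcript or coding lengths of GRCm38.p6. The biological coefficient of variation was 7.01% in RNA and 7.04% in footprints. The test code was also run on simulated counts with known changes, and the outcome is not given here. Alternatives were no replicate block, DESeq2, ComBat (sva 3.50.0) then DESeq2, other size factors, other filters, only the groups compared, halved even counts, a GC content and length trend, the lysate as a block, and leaving out each replicate and library.

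Members named with values were those called anywhere, the C-types, the 3 most abundant per cluster and, for genotype in vehicle and DHPG in WT, the 3 with the smallest p per readout. Members and lists were chosen with earlier results of these data known. Sequences of the members are not reported here.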

Additional observations from a re-analysis of the deposited data

How the results depend on the processing

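The labels do not say whether a replicate number shared between groups marks a shared preparation. Same-numbered libraries of different groups deviated together with r of 0.023 to 0.143 in RNA and 0.033 to 0.263 in footprints. For different numbers r was -0.126 to 0.024 and -0.194 to 0.067. Each of the 12 libraries of a readout correlated best with its own number. With no replicate block, 0 members (1 with it) were called in RNA by genotype in vehicle, where Pcdhgb1 had an adjusted p of 0.119, and 1 member (2 with it) by genotype averaged over treatments, where Pcdhga12 had 0.260. Leaving out 1 replicate number or library gave 0 to 1 called members in RNA for genotype in vehicle, genotype in DHPG, DHPG in WT, DHPG in Tsc2+/- and DHPG averaged, and 0 to 3 for genotype averaged. The added calls, all without replicate 3 or WT DHPG replicate 3, were of Pcdha4-g, which shares its first exon with Pcdha4. Pcdha6-g gave the 1 call for DHPG in Tsc2+/- with only the groups compared in RNA and the 1 call each for genotype in DHPG and DHPG in Tsc2+/- in footprints per RNA with the lysate as a block. The log2 fold change of Pcdhgb1 in vehicle was 0.35 to 0.51 over 24 alternatives (adjusted p 0.00285 to 0.546), 7 of which lost the call, among them leaving out replicate 1 or 2. Averaged over treatments it was lost in 1 of 23, without replicate 2 (adjusted p = 0.501). That of Pcdhga12 was 0.23 to 0.34 over 23 (adjusted p 0.000367 to 0.302), 4 of which lost it: no block, without replicate 1, without replicate 2 and without WT DHPG replicate 1.

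The median log2 fold change over all members, with replicates or libraries left out, ran from -0.009 to 0.038 for DHPG in WT and from -0.012 to 0.039 for DHPG in Tsc2+/- in RNA, and from 0.059 to 0.108 for genotype in DHPG and from -0.043 to 0.017 for DHPG in Tsc2+/- in footprints. The negative RNA medians came without replicate 2, the lowest footprint medians without replicate 1 or its Tsc2+/- DHPG library. Without its most abundant member, the summed cluster log2 ratio went from 0.034 to -0.039 for alpha RNA with DHPG in WT, from 0.05 to 0.02 for alpha footprints with DHPG in Tsc2+/- and from -0.005 to -0.044 for gamma footprints with DHPG in Tsc2+/-. The gamma RNA median by genotype in vehicle stayed between 0.062 and 0.158, and that of footprints per RNA with DHPG in WT between -0.221 and -0.130, with libraries or, for footprints per RNA, replicate numbers left out. ComBat and leaving out single libraries were not run for footprints per RNA. The other recomputed values stayed within the spread or on their side of the threshold, and the causes of the changes were not tested.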

Other observations

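The footprint counts of replicates 2 and 3, nearly all even over the whole table, were not so in the clustered protocadherins with shared exons. Among counts of at least 20 in these libraries, 54 of 102 alpha counts (52.9%) and 92 of 176 gamma counts (52.3%) were odd, against 20 of 166 in the single-exon beta genes (12.0%) and 1661 of 92068 in other genes (1.8%). In replicate 1, 51.9% of alpha, 52.3% of gamma, 64.3% of beta and 49.7% of other counts were odd. What sets an odd count was not tested. Dividing the counts of these replicates by 2 changed no call of a member.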
